A study of Mus musculus with 240 samples.

Results

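The opioid system of the brain is described here through 7 genes, the receptors Oprm1, Oprd1, Oprk1 and Oprl1 and the peptide precursors Penk, Pdyn and Pnoc. They were chosen from the 55414 genes of the count table by name, not by measured value, but with earlier results of these data known. All 7 were among the 14785 genes that passed the authors' filter on low counts. RNA-seq libraries of poly(A) RNA came from brain punches of 48 mice, with 3 females and 3 males of each of the 8 founder strains of the Collaborative Cross: C57BL/6J (B6), A/J (AJ), 129S1/SvImJ (S129), NOD/LtJ (NOD), NZO/HILtJ (NZO), WSB/EiJ (WSB), PWK/PhJ (PWK) and CAST/EiJ (CAST). All mice were naïve inbred animals with no allele or agent added, aged 8 weeks according to the series' design text, although the methods give an older age. Punches of the central amygdala (CeA), of the core of the nucleus accumbens (NAcc) and of prelimbic cortex (PrL) were taken from every mouse and gave 24 strain-by-region groups of 6 libraries, except B6 NAcc, in which the authors excluded 1 library and left 5. The study asked how the founders differ in gene expression, and how the strains with a high preference for ethanol, B6 and PWK, differ from the other 6.

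The mu, delta, kappa and nociceptin receptors are coupled to inhibitory G proteins, which lower cyclic AMP, open inwardly rectifying potassium channels and close presynaptic calcium channels. Their ligands are cut at paired basic residues from large precursors, so that Penk gives the enkephalins, Pdyn the dynorphins and Pnoc nociceptin, which acts on Oprl1 and hardly on the other receptors. Enkephalin and dynorphin are classical products of the indirect (D2) and direct (D1) projection neurons of the striatum, and the mu and kappa receptors have been linked to reward and aversion and to ethanol drinking in rodents.

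The codons of the peptide cores are shown because they are what the precursors share and what separates Pnoc from the others. Each sequence is a stretch of the coding sequence, sense strand, of a GENCODE M21 (GRCm38) transcript. Capitals mark the codons of the core, for tyrosine, glycine, glycine and phenylalanine in Penk and Pdyn and for phenylalanine in place of tyrosine in Pnoc, and the bases before them are the codons of the paired basic residues at which the precursor is cut.
Penk core 1: aagaagTACGGAGGCTTCatgaaacggtac
Penk core 6: aagaggTATGGGGGCTTCctgaagcgcttt
Pdyn core 1: aaacgcTATGGCGGCTTTttgcgcaaatac
Pdyn core 2: aaacgcTATGGGGGCTTCctgcggcgcatt
Pnoc core: aaaaggTTTGGGGGCTTCaccggggcccgg
The coding sequence of Penk has 268 codons and 7 such cores, of which 6 are followed by a methionine codon and core 6 by a leucine codon, as in Met- and Leu-enkephalin. That of Pdyn has 248 codons and 3 cores, all followed by leucine codons, and that of Pnoc has 212 codons and 1 core.

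The median library had 24456928 counts in all (range 14942820 to 33951616). Levels are given as CPM, a gene's share of the scaled library total, with library totals scaled by TMM, the trimmed mean of M-values, and changes as log2 fold changes with their standard errors (SE). A call is an adjusted p below 0.05 in limma. The punches differed in what they held. The summed CPM of 8 markers of Striatal neurons had a median of 1200 in the CeA (from 262 to 8880), 4150 in the NAcc (from 429 to 8750) and 249 in the PrL (from 181 to 2270). Markers of pallial glutamatergic neurons had medians of 1180, 15.3 and 2670 CPM. The 8 markers of central amygdala neurons did not separate the CeA (median 546, from 318 to 742) from the NAcc (median 557, from 347 to 735). Markers of diencephalic neurons ranged from 44.5 to 361 CPM in the CeA and from 23.1 to 543 in the NAcc, and those of the choroid plexus from 2.34 to 9280 in the CeA, with medians of 2000 in S129, 726 in NOD and from 3.7 to 81.9 in the other strains. Within PWK, the NAcc libraries of mouse 24 and mouse 40 had Striatal neurons sums of 428.8 and 630.6 CPM, below the 2270 of the PrL library of mouse 40. That library, B6 mouse 25 (590) and WSB mouse 3 (559) were the 3 PrL libraries above 499 CPM, which is 2 times the PrL median. Penk of PWK in the PrL is given without these 3 as well, and Penk and Oprk1 of PWK there without mouse 40. Covariates below are the log2 sums of the striatal and pallial markers, and the 3 covariates are these and the diencephalic sum. The shares of all genes given below belong to fits without covariates. No such share is given for the fits with covariates, so their counts of calls cannot be set against one.

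Region took most of the variation in 4 of the 7 genes, with 86.1% of the sum of squares of log2 CPM for Penk, 83.2% for Oprm1, 77.2% for Oprk1 and 57.4% for Pdyn, and from 9.3% (Pnoc) to 20.8% (Oprd1) in the other 3. Penk, Oprm1, Oprk1 and Pdyn were lowest in the PrL and highest in the NAcc, whereas Oprd1 was highest in the PrL and Oprl1 and Pnoc in the CeA. Between regions, averaged over strains, 19 of 21 contrasts were called, where 69.1% (CeA against NAcc), 73.9% (CeA against PrL) and 82.4% (NAcc against PrL) of all genes were. Penk, the enkephalin precursor, had 148.1, 594.6 and 2257 CPM as the lowest, median and highest of 48 CeA libraries, 361.2, 1134 and 2155 CPM in 47 NAcc libraries, and 16.92, 36.56 and 318.4 CPM in 48 PrL libraries. Every NAcc library was above every PrL library, and the CeA overlapped both. The fitted level was 25.5-fold higher in the NAcc than in the PrL (log2 fold change 4.67, SE 0.148, adjusted p = 5.15e-57) and 15-fold higher in the CeA than in the PrL. In these bulk samples, fewer cells of a type and less RNA per cell cannot be told apart. The 6 striatal markers that could be tested were all higher in the NAcc than in the PrL and in the CeA than in the PrL, with median log2 fold changes of 4.22 and 2.47, and their part in the regional differences was not tested.

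**Figure D1:**
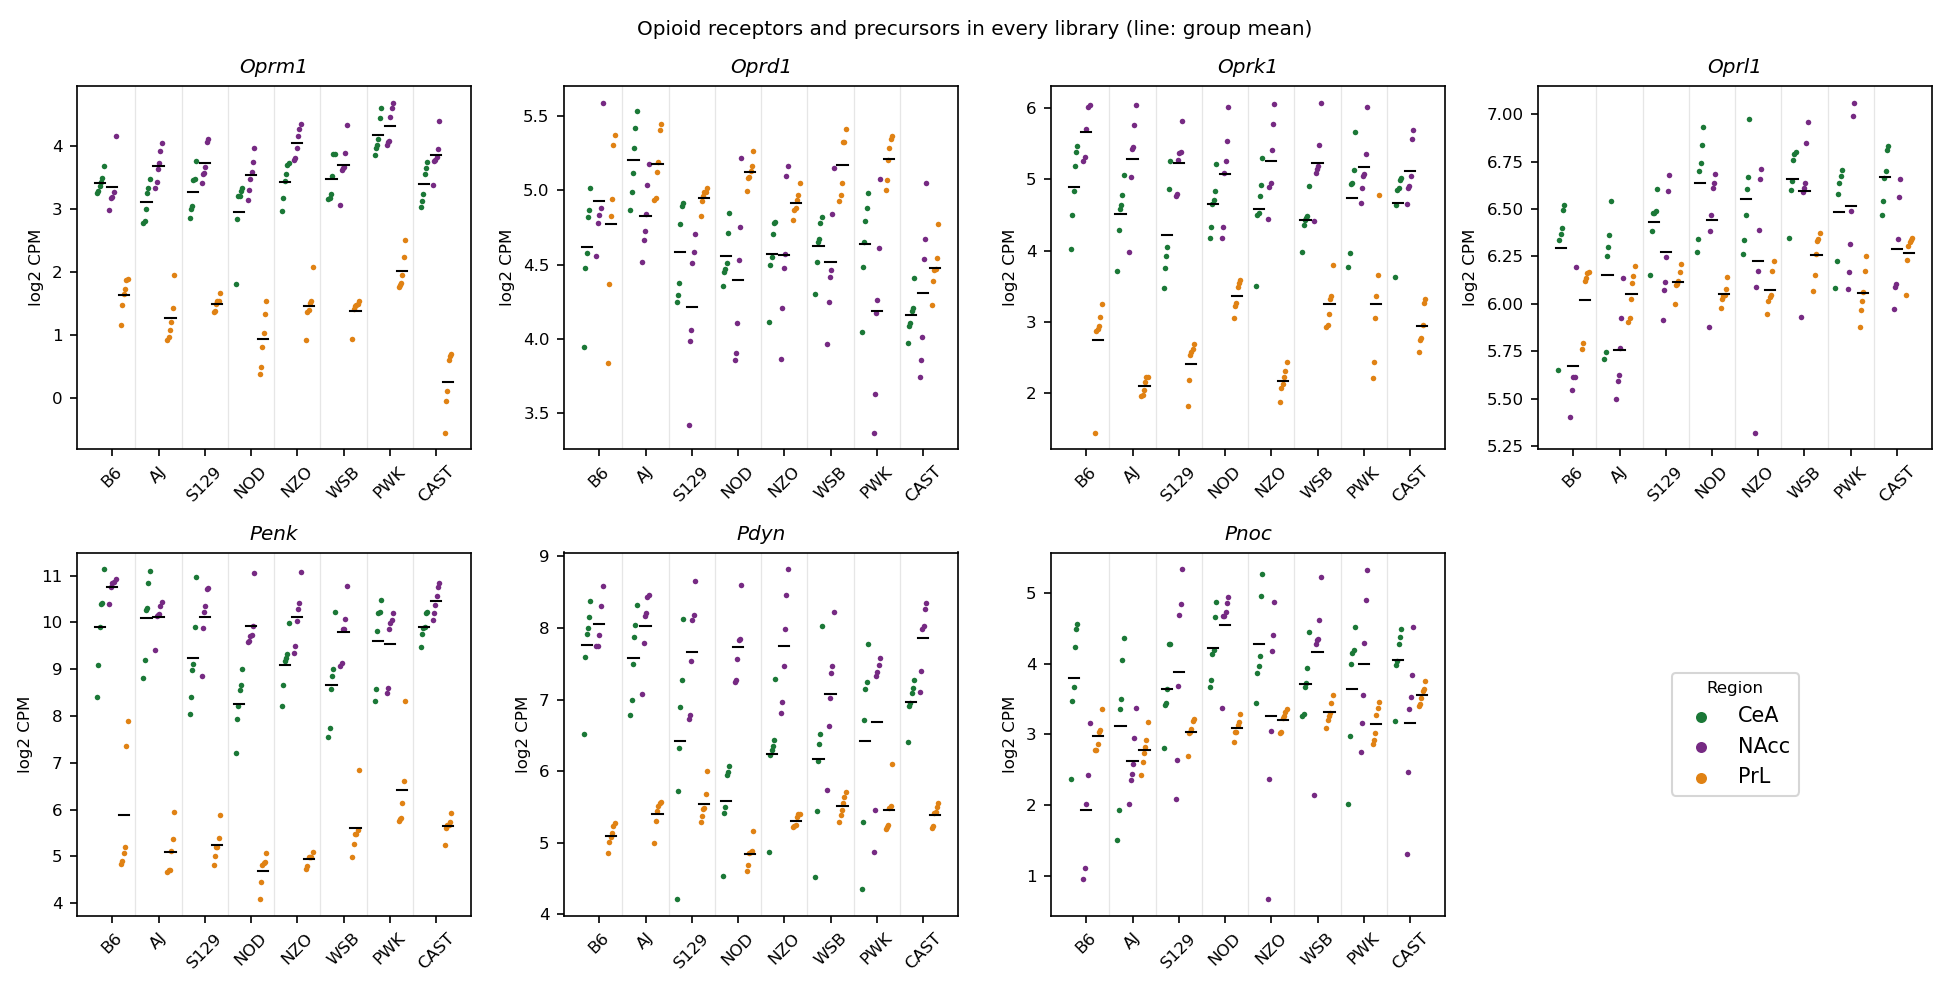
Each panel plots 1 gene as log2 CPM on the y axis against strain on the x axis, with 1 point per library, colours for the 3 regions and a line at each group mean. The PrL points of Penk lie below those of the NAcc in every strain (medians over all libraries 36.56 and 1134 CPM), whereas Oprl1 and Pnoc overlap between regions in most strains.

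Among the receptors, Oprm1 had a median of 10.16 CPM in the CeA (from 3.492 to 24.14), 13.62 in the NAcc (from 7.866 to 25.75) and 2.691 in the PrL (from 0.6575 to 5.655), and no PrL library reached any NAcc library. It was 5.57-fold higher in the NAcc than in the PrL (log2 fold change 2.48, SE 0.0971, adjusted p = 5.23e-48). Oprk1, the dynorphin receptor, had medians of 25.12, 38.25 and 7.086 CPM in the CeA, NAcc and PrL, with 5.55-fold more in the NAcc than in the PrL (adjusted p = 5.5e-35), although its highest PrL library, at 27.56 CPM, lay within the NAcc range. Oprd1, the delta receptor, was ordered the other way, with medians of 25.1, 23.18 and 31.82 CPM. Its NAcc level was 0.71 of that in the PrL (adjusted p = 9.08e-11), and the CeA and NAcc were not called apart (log2 fold change 0.13, 95% confidence interval -0.003 to 0.27, adjusted p = 0.0714). Oprl1, the nociceptin receptor, varied least between regions, with medians of 91.06, 73.23 and 69.28 CPM, and the CeA was 1.29-fold above the PrL (adjusted p = 2.48e-10). Its difference between the NAcc and the PrL was not called (log2 fold change 0.11, 95% confidence interval 0.01 to 0.21, adjusted p = 0.0514) but was under 8 of 12 alternative settings (adjusted p from 0.000281 to 0.0965 over the 12), among them the mouse as a replicate block (adjusted p = 0.0436).

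Of the other precursors, Pdyn had medians of 107.6, 214.5 and 40.38 CPM in the CeA, NAcc and PrL and was 4.92-fold higher in the NAcc than in the PrL (log2 fold change 2.30, SE 0.143, adjusted p = 2.53e-30). Its CeA libraries ranged from 18.48 to 333.5 CPM and covered the whole range of the PrL (from 24.32 to 68.4). Pnoc had medians of 15.75, 11.56 and 8.836 CPM. Its level was 1.62-fold higher in the CeA than in the PrL (adjusted p = 4.85e-05), while its differences between the CeA and the NAcc (1.26-fold, adjusted p = 0.0451) and between the NAcc and the PrL (1.29-fold, adjusted p = 0.0458) were close to the threshold and were each lost under some other settings. The NAcc libraries of Pnoc ranged from 1.555 to 40.48 CPM and those of the PrL only from 5.341 to 13.41 CPM.

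Levels of different genes can be compared only per length, here as mean CPM per kilobase of exon (GENCODE M21). Penk was the highest of the 7 in every region, at 494 ± 327 (SD, n = 48) in the CeA, 725 ± 283 (n = 47) in the NAcc and 33.2 ± 33.2 (n = 48) in the PrL. Pdyn followed in the CeA (44.5 ± 29.8) and the NAcc (76.3 ± 34.6), with Oprl1 behind it at 24.3 ± 4.5 and 21 ± 6.34. In the PrL, Oprl1 (18.5 ± 1.83) stood above Pdyn (14.1 ± 2.91). Oprm1 was the lowest of the 7 per kilobase in every region, at 1.38 ± 0.462, 1.78 ± 0.523 and 0.327 ± 0.121, next to Oprk1 at 2.81 ± 1, 4.41 ± 1.57 and 0.828 ± 0.439. The ranges of Oprd1 (6.31 ± 1.66) and Pnoc (7.31 ± 3.32) in the CeA did not differ beyond their spread. Where counted reads overlap, genes could share them: 14.3% of the exon bases of Penk lie opposite exons of the antisense gene A830012C17Rik and 1.19% of those of Oprm1 opposite Ipcef1, and the strand setting of the counting is not given in the sources used here.

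Most of the 7 genes differed between strains in each region. Reads of every strain were aligned to the B6 reference genome, and the loss of reads that differ from it was not tested. By the F test over the 8 strains, 5 of 7 were called in the CeA (80.8% of all genes), 5 of 7 in the NAcc (76%) and 7 of 7 in the PrL (84.1%). Oprk1 was not called in the CeA (adjusted p = 0.531) or in the NAcc (adjusted p = 0.691), Pnoc was not called in the CeA (adjusted p = 0.164) and Oprd1 was not in the NAcc (adjusted p = 0.0764). Of the 196 comparisons of each region (7 genes in 28 pairs of strains), 45 were called in the CeA (23%, against 28.9% of all gene and strain pairs), 34 in the NAcc (17.3% against 26%) and 72 in the PrL (36.7% against 33.1%). The median size of a difference between 2 strains over the 7 genes (absolute log2 fold change) was 0.341, 0.342 and 0.28 for the CeA, NAcc and PrL, and over all genes it was 0.175, 0.174 and 0.15. As a share of the sum of squares of log2 CPM, strain took from 2.47% (Oprk1) to 23.8% (Oprl1) and strain by region from 2.47% (Penk) to 17.1% (Pnoc).

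Oprm1, the receptor of morphine and beta-endorphin, separated 2 wild-derived strains in opposite directions. In the CeA of PWK it had 14.48, 16.7 and 24.14 CPM as the lowest, median and highest of 6 libraries (18.26 ± 3.84, SD), and the other strains had means from 8.134 ± 2.49 (NOD) to 11.34 ± 2.68 (WSB). Only the WSB libraries of mouse 19 and mouse 27, at 14.62 and 14.57 CPM, lay above the lowest PWK library. PWK was called higher than each of the other 7 strains, which makes Oprm1 a unique DEG of PWK, as were 2.52% of all genes in this direction. The mean log2 fold change was 0.87 (1.83-fold, SE 0.131, largest adjusted p of the 7 contrasts 0.00292). Within the 3 sequencing trays, PWK was above the low preference strains by 0.55, 1.04 and 1.11 on the log2 scale.

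In the PrL, CAST had the lowest Oprm1, with 0.6575, 1.273 and 1.59 CPM as the lowest, median and highest of 6 libraries (1.216 ± 0.385), which rest on 14 to 33 reads a library. PWK had the highest, with 3.358, 3.66 and 5.655 CPM (4.073 ± 0.913). CAST overlapped only NOD, whose lowest library had 1.277 CPM, and was called lower than all 7 strains, a unique DEG of CAST as were 4.76% of genes in this direction. The mean log2 fold change was -1.24 (0.424-fold, SE 0.185, largest adjusted p 0.015), and the smallest difference was that from NOD, which was higher by 0.72 (SE 0.234). Without CAST mouse 36 the mean was -1.06 and the call was lost (largest adjusted p 0.0737). It was also lost without NOD mouse 7 and with the 3 covariates (-0.996, largest adjusted p 0.0738). In the CeA and the NAcc, CAST was not set apart, at 10.64 ± 2.19 and 14.69 ± 3.55 CPM. The part of the alignment to the B6 genome in the low PrL values of CAST was not tested.

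The order of the strains in the PrL ran from PWK through B6 (3.108 ± 0.558), NZO and S129 (2.816 and 2.802 CPM on average), WSB, AJ and NOD to CAST. PWK and B6 did not differ by the test (adjusted p = 0.0566), nor did any neighbours between B6 and NOD, and NOD and CAST did. In the NAcc, PWK was again the highest (16.08, 19.49 and 25.75 CPM) and was called above 6 of 7 strains, the exception being NZO (adjusted p = 0.175), whereas B6 was the lowest, at 17.76, 8.992, 9.138, 7.866 and 9.612 CPM in its 5 libraries. The first of these stood above the other 4 and above every library of AJ, S129 and NOD.

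**Figure D2:**
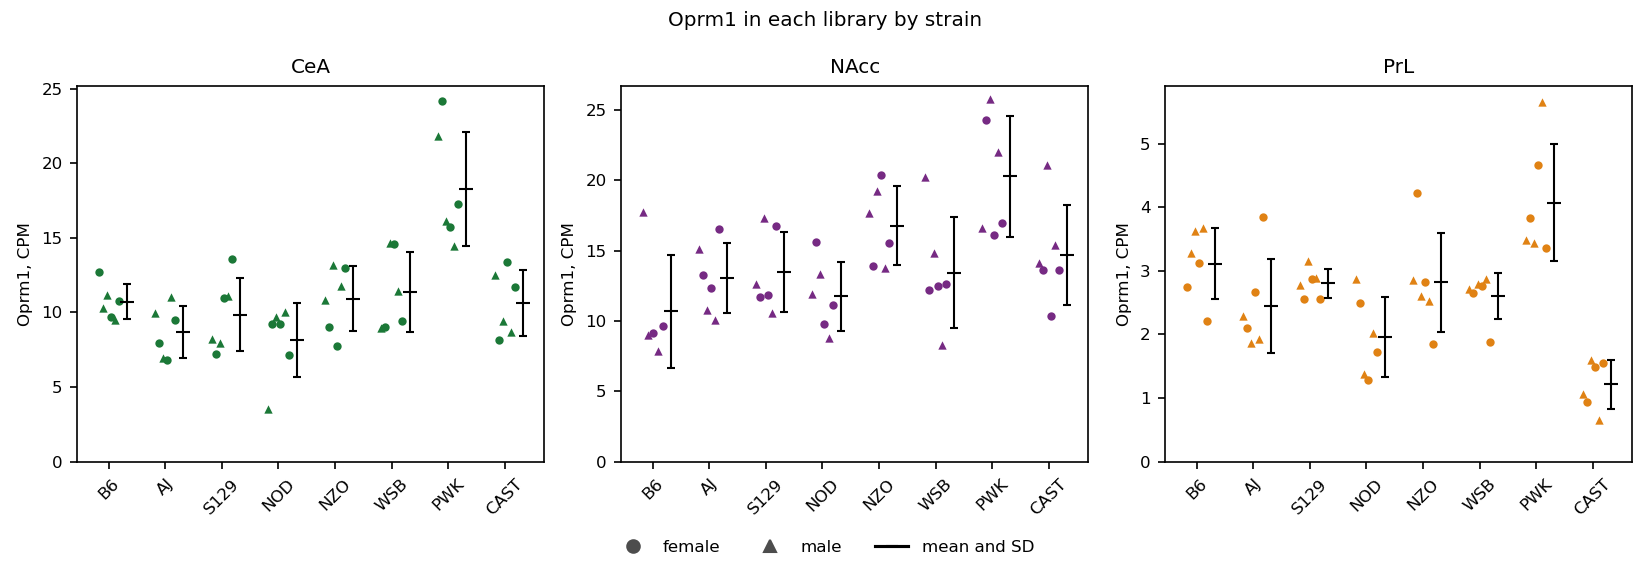
Oprm1 in CPM (y axis, from 0, with a scale of its own in each panel) is plotted against strain (x axis) for the CeA, NAcc and PrL, with circles for females, triangles for males and the mean with its SD beside them. PWK is the highest group in each region (18.26 CPM on average in the CeA) and CAST the lowest in the PrL (1.216 CPM).

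Oprd1, the delta receptor that binds enkephalins, was highest in the CeA of AJ and lowest in that of CAST. AJ had 29.23, 36.84 and 46.35 CPM (37.32 ± 6.6), above every library of NOD, NZO, WSB and CAST and overlapping B6, S129 and PWK. CAST had 15.7, 17.69 and 21.24 CPM (17.95 ± 1.88) and overlapped all strains but AJ. AJ was called above all 7 others (mean difference 0.67 on the log2 scale with an SE of 0.104, adjusted p of at most 0.00192, as for 0.852% of genes), and CAST below all 7 (mean -0.53, SE 0.118, largest adjusted p 0.0375, as for 3.27%). The AJ call was lost with the covariates (mean 0.46, largest adjusted p 0.0917), and the striatal sum of AJ in the CeA had a median of 4910 CPM against 1200 over all strains. The CAST call was kept with these covariates (mean -0.62, largest adjusted p 0.000592) but was lost in 15 of 48 fits without 1 mouse. In the PrL, CAST was again lowest (18.69, 22.09 and 27.32 CPM) and was called below 6 of 7 strains, and in the NAcc only 2 of 28 pairs were called. Whether alignment to the B6 genome lowered the Oprd1 counts of CAST was not tested.

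Oprk1 differed by strain in the PrL, where 11 of 28 pairs were called, and in 0 of 28 pairs in the CeA and 0 in the NAcc. With the covariates, 8 of 28 pairs were called in the PrL, 6 in the CeA and 0 in the NAcc, and the 3 covariates gave the same counts. The kappa receptor had 3.852, 4.27 and 4.665 CPM in AJ and 3.637, 4.498 and 5.372 in NZO, and 8.274, 10.39 and 12.05 in NOD and 7.572, 9.304 and 13.95 in WSB, so that the first pair of strains did not overlap the second. The log2 fold change of AJ against NOD was -1.26 (SE 0.28, adjusted p = 0.000382). PWK had 4.619, 9.284 and 27.56 CPM, the widest range of the 8 strains.

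Oprl1, the nociceptin receptor, was lowest in the NAcc of B6, at 46.7, 48.95, 73.23, 42.32 and 48.92 CPM in 5 libraries (52.02 ± 12.2), and of AJ, at 45.19, 51.92 and 70.38 CPM (54.74 ± 9.43). The excluded B6 NAcc library held 106 CPM of Oprl1, above all 5 of the others. WSB was the highest, with 61.02, 98.74 and 124.4 CPM (99.07 ± 21.7). B6 was called below 6 of 7 strains, all but AJ, and AJ below 5 of 7. The largest difference, B6 against WSB, was -0.94 on the log2 scale (SE 0.205, adjusted p = 0.000461). The diencephalic marker sum moved with these levels, with NAcc medians of 55 CPM in B6, 68.9 in AJ and 214 in WSB against 115 over all NAcc libraries. With the 3 covariates, B6 against WSB was -0.40 (adjusted p = 0.00145), and B6 was below NOD, WSB, PWK and CAST but no longer called below S129 (adjusted p = 0.0924) or NZO (adjusted p = 0.12). In the PrL, the range of strain means was narrow, from 65.46 ± 8.32 in B6 to 77.11 ± 5.83 in CAST.

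Without marker covariates, Penk differed most between strains in the CeA, where 7 of 28 pairs were called, against 3 in the NAcc and 5 in the PrL. NOD had 148.1, 335.6 and 516.6 CPM (330.8 ± 129) and AJ 448.6, 1250 and 2194 CPM (1261 ± 680), with AJ above NOD by 1.82 on the log2 scale (SE 0.464, adjusted p = 0.00241). The striatal marker sum differed between the same groups, with 262, 498 and 1060 CPM in NOD and 486, 4910 and 8880 in AJ. With the covariates, AJ against NOD was 0.08 (adjusted p = 0.812), and 0 of 28 pairs of strains were called for Penk in the CeA. The same covariates gave 17 of 28 pairs called in the PrL, and the 3 covariates gave 16 there and 1 in the CeA. The share of all genes called in these covariate fits is not given. In the PrL, PWK mouse 40 had 318.4 CPM and its other 5 libraries 53.87 to 97.03, and in B6 mouse 25 had 238.1, mouse 33 had 164.7 and the other 4 had 28.56 to 36.55. Those 3 libraries had striatal sums of 2270, 590 and 422 CPM.

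Pdyn, the dynorphin precursor, was likewise lowest in NOD in the CeA. B6, the highest, had 91.39, 248.2 and 333.5 CPM (233.2 ± 83.7) and NOD 23.25, 53.5 and 67.46 (50.62 ± 16.8), without overlap (log2 fold change 2.21, SE 0.512, adjusted p = 0.000863). The median striatal sum was 2150 CPM in B6 and 498 in NOD, and the median sum of oligodendrocyte markers 4990 and 1860. With the covariates the difference was 1.05 (adjusted p = 0.0181), and the part of the oligodendrocyte markers was not tested. In the PrL, where NOD was again lowest (24.32, 29.02 and 35.69 CPM), it was called below 6 of 7 strains, all but B6 (adjusted p = 0.0965). NOD overlapped B6 and AJ there, and lay below every library of NZO, WSB, PWK, CAST and S129.

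Pnoc was set apart in the PrL by CAST, at 10.57, 11.78 and 13.41 CPM (11.78 ± 1.09), and by AJ, at 5.341, 6.854 and 8.988 CPM (6.941 ± 1.26), which did not overlap (CAST above AJ by 0.788 on the log2 scale, SE 0.107, adjusted p = 8.3e-08). CAST was called above 6 of 7 strains, all but WSB (adjusted p = 0.0533), and AJ below 6 of 7. In the NAcc, only 4 of 28 pairs were called although strain means ranged from 4.468 ± 2.87 CPM in B6 to 24.6 ± 7.27 in NOD. The diencephalic sums had medians of 55 CPM in B6 and 167 in NOD there, and with the 3 covariates 4 of 28 pairs were called as well, and 9 with the striatal and pallial sums alone.

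To compare the high preference strains with the others, B6 and PWK were each set against Low_Average, the mean of AJ, CAST, NOD, NZO, S129 and WSB. B6 differed in 6 of 21 comparisons (7 genes in 3 regions) and PWK in 7 of 21. For B6 the calls were 1 of 7 in the CeA, 3 of 7 in the NAcc and 2 of 7 in the PrL, where 41%, 32.2% and 37.6% of all genes were called. For PWK they were 1, 2 and 4 of 7, where 39.2%, 38.7% and 47.1% were. B6 and PWK share the 6 control strains in these comparisons, and their values below are log2 fold changes.

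In the PrL, Oprm1 was higher than Low_Average by 0.48 in B6 (SE 0.136, adjusted p = 0.00407) and by 0.90 in PWK (SE 0.134, adjusted p = 5.28e-07) on the log2 scale. PWK was also higher by 0.89 in the CeA (adjusted p = 7.45e-07) and by 0.56 in the NAcc (adjusted p = 0.000422). B6 was lower in the NAcc, with a log2 fold change of -0.46 (SE 0.159, adjusted p = 0.0236), and was not called in the CeA (0.16, 95% confidence interval -0.14 to 0.46). With the covariates, the 3 PWK values were 0.85, 0.57 and 0.75 and stayed called, and B6 in the PrL was 0.44 (adjusted p = 0.0113). With the 3 covariates, PWK stayed called (0.76, 0.51 and 0.49), and B6 in the PrL did not (0.32, adjusted p = 0.0694). For B6 in the NAcc the value was -0.25 with the striatal and pallial covariates (adjusted p = 0.262) and -0.36 with the 3 covariates (adjusted p = 0.0949). That call was also lost without B6 mouse 17, 25 or 33.

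**Figure D3:**
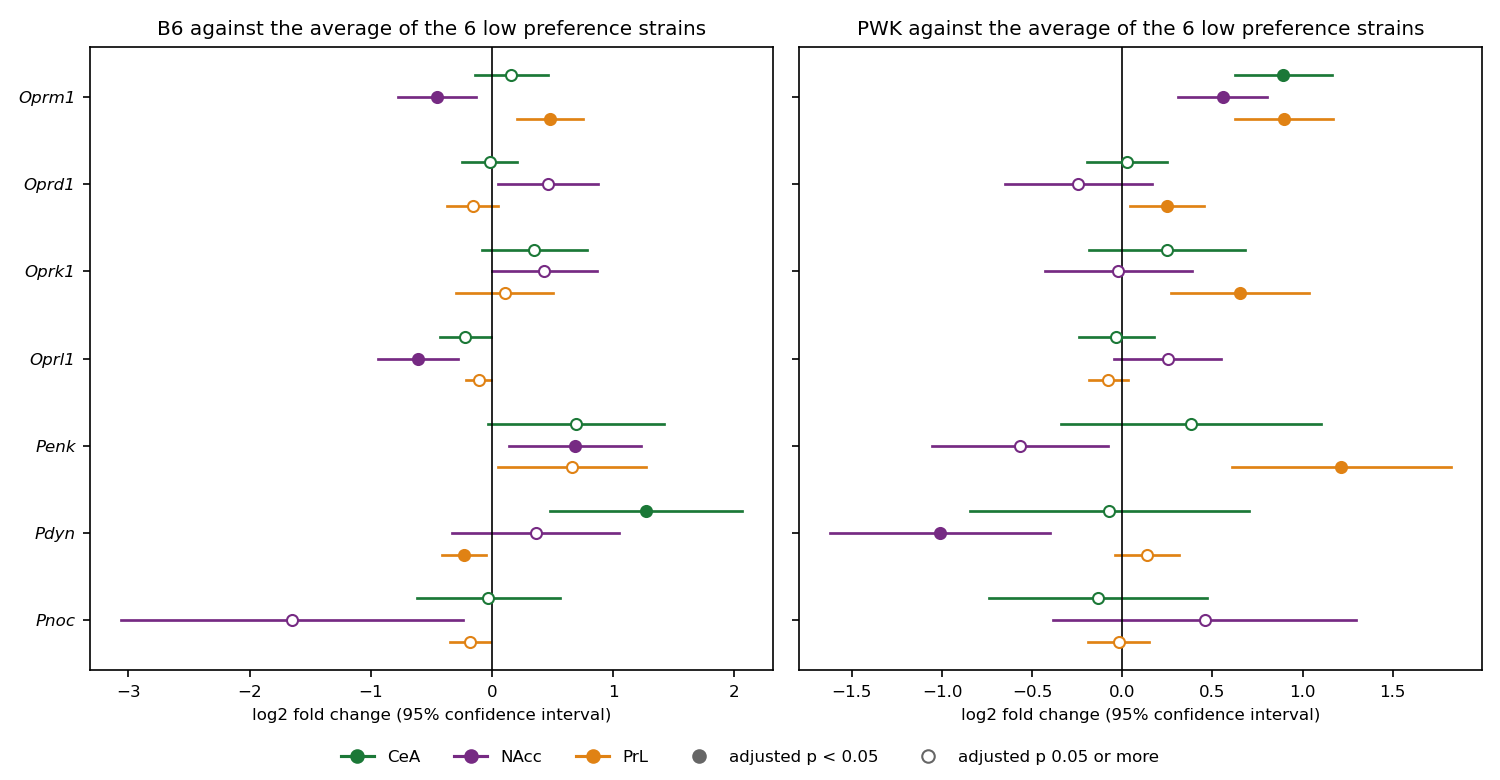
Log2 fold changes (x axis) of the 7 genes (y axis) in B6 (left) and PWK (right) against Low_Average, with 95% confidence intervals, colours for the regions and filled points where the adjusted p was below 0.05. Oprm1 in PWK is filled in all regions, at 0.89, 0.56 and 0.90, and the widest interval is that of Pnoc in B6 NAcc, from -3.06 to -0.24.

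Of the other receptors, Oprk1 and Oprd1 were called for PWK in the PrL. Oprk1 was higher by 0.65 (SE 0.19, adjusted p = 0.00498). Without PWK mouse 40, whose PrL library held 27.56 CPM of Oprk1, it was 0.27 (adjusted p = 0.21), and with the marker covariates 0.17 (adjusted p = 0.44). Oprd1 was higher by 0.25 (adjusted p = 0.0461), a call lost in 24 of 48 fits without 1 mouse and with the covariates (0.09, adjusted p = 0.491). Oprl1 was lower in B6 NAcc (-0.61, SE 0.163, adjusted p = 0.00324), which with the covariates was -0.38 (adjusted p = 0.00245) and with the 3 covariates -0.26 (adjusted p = 0.00869). The diencephalic markers had a median log2 fold change of -1.30 in B6 NAcc, with 1 of 5 called lower. For PWK no Oprl1 contrast was called without covariates. That in the PrL was called with the covariates (-0.15, adjusted p = 0.00752) and with the 3 covariates (-0.14, adjusted p = 0.0326).

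Penk was higher in B6 NAcc, where the 5 libraries had 1859, 1949, 1347, 1831 and 1726 CPM, by 0.69 (SE 0.269, adjusted p = 0.0439). The excluded B6 NAcc library held 141 CPM of Penk and 6.83 of Pdyn, and with it the value was 0.03 (adjusted p = 0.958). Striatal neurons markers summed to 4170 to 8750 CPM in these 5 libraries, and with the marker covariates the value was 0.27 (adjusted p = 0.0602). In PWK PrL, Penk was higher by 1.22 (SE 0.301, adjusted p = 0.00105), where the striatal markers were also higher in 3 of 6 (median log2 fold change 0.728). It stayed called with the covariates (1.29, adjusted p = 4.91e-08), without PWK mouse 40 (0.77, adjusted p = 0.0259) and without the 3 PrL libraries high in striatal markers (0.84, adjusted p = 0.00101).

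Pdyn was higher in B6 CeA by 1.27 (2.41-fold, SE 0.393, adjusted p = 0.00884) and with the covariates by 0.82 (adjusted p = 0.00791). Beside it, the 3 tested markers of oligodendrocytes were also higher in B6 CeA, with a median log2 fold change of 1.461, and their part in the result was not tested. In B6 PrL, Pdyn was lower (-0.23, adjusted p = 0.0337), as it was with the covariates (-0.29, adjusted p = 0.00223). Without B6 mouse 1, 9 or 33, Pdyn was no longer called there, nor was it with no filter on low counts (adjusted p = 0.0632). In PWK NAcc it had 178.9, 160.2, 29.17, 192.2, 43.82 and 167.4 CPM, the libraries of mice 24 and 40 being the low ones, and was lower than Low_Average (-1.01, SE 0.303, adjusted p = 0.00826). Those libraries were also the ones with Striatal neurons sums of 428.8 and 630.6 CPM, while the other 4 had 3942 to 4273. Without mouse 24 the value was -0.66 (adjusted p = 0.09) and with the covariates -0.40 (adjusted p = 0.133), whereas with the 3 covariates it was -0.57 (adjusted p = 0.00393). Pnoc was not called for either strain without covariates, with its largest value in B6 NAcc (-1.65, adjusted p = 0.0615). That value was called with the covariates (-1.09, adjusted p = 0.036) and not with the 3 covariates (-0.69, adjusted p = 0.0717). It was also called by edgeR, by DESeq2, with no tray term, with quality weights and in 4 of 48 fits without 1 mouse.

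**Figure D4:**
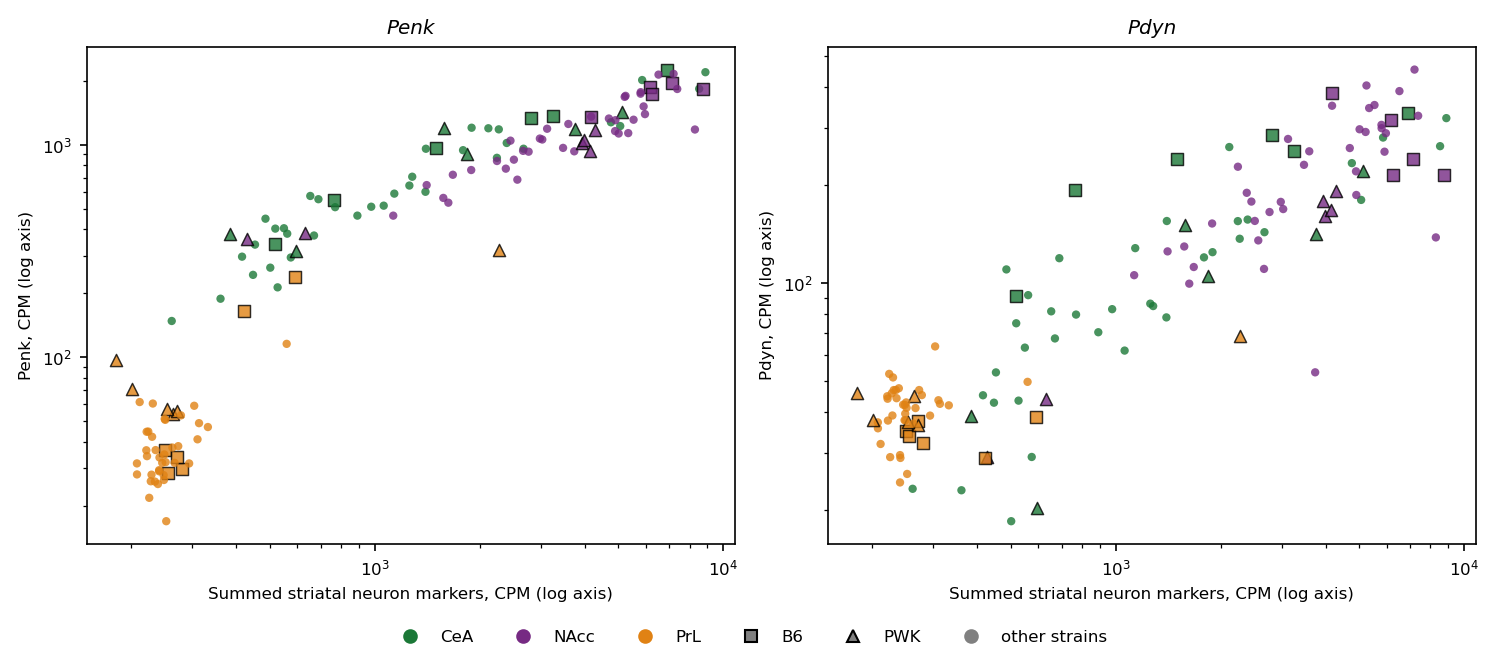
Penk (left) and Pdyn (right) in CPM (y axis, log) are plotted against the summed CPM of 8 markers of striatal neurons (x axis, log), 1 point per library, coloured by region, with squares for B6 and triangles for PWK. The 2 PWK NAcc libraries low in Pdyn (29.17 and 43.82 CPM) lie at the low end of the NAcc marker sums, and the PWK PrL library with 318.4 CPM of Penk lies at 2270 CPM of markers, above every other PrL library.

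Whether strain differences depended on the region was tested in 1 fit over all libraries. The F test over the 14 terms of strain by region was called for 5 of 7 genes, against 34.6% of all genes: Oprm1 (F = 3.22, adjusted p = 0.00253), Oprd1 (F = 2.25), Oprl1 (F = 2.29), Penk (F = 2.41) and Pdyn (F = 2.9, adjusted p = 0.00583), and not for Oprk1 (adjusted p = 0.0713) or Pnoc (adjusted p = 0.0593). With the mouse as a replicate block, Pnoc was called (adjusted p = 0.0443) and Oprk1 was not (adjusted p = 0.0509). By edgeR both were (adjusted p = 0.00528 and 0.00643), and Oprd1 was not (adjusted p = 0.059). With the excluded library put back, Oprl1 (adjusted p = 0.145) and Penk (adjusted p = 0.0558) were not called. Of the differences from Low_Average, that of B6 in Oprm1 was lower in the NAcc than in the PrL (-0.91 on the log2 scale, SE 0.261, adjusted p = 0.018, 9.22% of genes called) and higher in the CeA than in the NAcc by 0.59 (adjusted p = 0.0454, 15.3% called). The difference of B6 in Pdyn was larger in the CeA than in the PrL by 1.5 (adjusted p = 0.0193, 10.5% called), and that in Oprd1 larger in the NAcc than in the PrL by 0.61 (adjusted p = 0.0484). For PWK, the difference in Penk was lower in the NAcc than in the PrL (-1.78, adjusted p = 0.00491, 5.36% called), and without PWK mouse 40 it was -1.19 (adjusted p = 0.0813). The other differences of PWK, between the CeA and the NAcc (3.12% of genes called) and between the CeA and the PrL (3.09%), were called for 0 of 7 genes. The Oprd1 call was lost in 30 of 48 fits without 1 mouse, the call of Oprm1 between the CeA and the NAcc in 16, those of Oprm1 between the NAcc and the PrL and of Pdyn in 2 and 3.

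None of the 7 genes was called between males and females, 0 of 21 contrasts by limma, edgeR's quasi-likelihood test or DESeq2, where 0.135%, 0.0812% and 0.0947% of all genes were called in the CeA, NAcc and PrL. By an unadjusted p below 0.05, 2 of 21 passed in limma, both in the CeA: Pdyn was lower in males (log2 fold change -0.55, 95% confidence interval -1.07 to -0.04, p = 0.0361, adjusted p = 0.649) and Pnoc higher by 0.40 (p = 0.0406, adjusted p = 0.665).

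Of 46 genes that make, break down or relay opioid signals, 43 could be tested. Against Low_Average, B6 differed in 14 of 43 in the CeA (32.6%) and in 18 each (41.9%) in NAcc and PrL, and PWK in 11 (25.6%), 14 (32.6%) and 20 (46.5%) by the same order of regions, beside the 41%, 32.2% and 37.6% of all genes for B6 and the 39.2%, 38.7% and 47.1% for PWK. Of the 7 genes of precursors and processing, 2 were lower and 0 higher in B6 CeA, 2 and 1 in B6 NAcc and 3 and 1 in B6 PrL, and in PWK 1 and 1, 0 and 2, and 1 and 1. The largest of them was Scg5, which encodes 7B2, the chaperone of the convertase PC2, with a log2 fold change of -1.22 in B6 CeA (SE 0.0533, adjusted p = 3.54e-22), -1.07 in B6 NAcc and -1.26 in B6 PrL, and it was higher in PWK by 0.40, 0.32 and 0.27 in the same regions. Of the 14 G proteins and effectors, 7 were lower and 1 higher in B6 CeA, 4 and 1 in B6 NAcc and 3 and 2 in B6 PrL, and in PWK 4 and 0, 1 and 3, and 1 and 4. Kcnj5, a subunit of G protein-gated potassium channels, was lower in B6 NAcc (0.413-fold, adjusted p = 0.00916), Kcnj3 lower in PWK CeA (0.657-fold, adjusted p = 0.00832) and Kcnj6 higher in PWK NAcc (log2 fold change 1.26, adjusted p = 0.000514). No values with marker covariates are given for the genes of any of these lists. The 4 tested pallial markers had median log2 fold changes of 1.865 in B6 NAcc (2 called higher) and 1.063 in PWK NAcc (0 called). The part of the punches' content in the pathway values was not tested.

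Of the 14 genes of desensitization and trafficking, 1 was higher and 3 lower in B6 CeA, 6 and 3 in B6 NAcc and 3 and 4 in B6 PrL, and in PWK 2 and 2, 3 and 1, and 5 and 3. Among them was Rgs4, which speeds the shut-off of inhibitory G proteins and was higher in B6 NAcc by 1.08 (adjusted p = 0.00154). Rtp4, which helps opioid receptors to the cell surface, was higher in B6 CeA by 0.85 (adjusted p = 0.000758). Rgs14, another regulator of G protein signalling, was lower in PWK NAcc (-0.85, adjusted p = 0.00651). Rgs9, also a striatal marker, was higher in the PrL of B6 by 1.20 (adjusted p = 0.000346) and of PWK by 0.72 (adjusted p = 0.0499). No value of Rgs9 without the 3 PrL libraries high in striatal markers is given. Of the 8 genes of breakdown and scavenging, 0 were called in B6 CeA, 1 was lower in B6 NAcc and 2 were lower in B6 PrL. In PWK, 1 was higher and 0 lower in the CeA, 1 and 3 in the NAcc, and 3 and 2 in the PrL, where Ackr3, an atypical receptor that takes up opioid peptides, was lower (-0.59, adjusted p = 4.2e-08).

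The genes most like each member over the 24 group means of log2 CPM are given as a description, since the means share mice and libraries. Penk was most like Adora2a and Sv2c (Pearson's r of 0.989 for both), and with the region means taken off like Lrrc10b (r = 0.955) and Gpr6 (r = 0.906). Pdyn was most like Pard3 (r = 0.966) and Pde1b (r = 0.965), and with region taken off like Pard3 (r = 0.883) and Tcf7 (r = 0.868). Pnoc was most like Oprl1, its own receptor (r = 0.896), and Slc26a11 (r = 0.888), and with region taken off like Kcnc2 (r = 0.909) and Nap1l5 (r = 0.905). Oprl1 was most like Slc17a6 (r = 0.948), a marker of diencephalic neurons, and Vwc2 (r = 0.908), and with region taken off like Rwdd2a (r = 0.948) and Slc17a6 (r = 0.932).

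Oprm1 was most like Pde3a (r = 0.97) and Sall2 (r = 0.966), and with region taken off like Pde3a (r = 0.819) and Wdcp (r = 0.792). Oprk1 was most like Gdnf (r = 0.964) and Isl1 (r = 0.962), and with region taken off like Ppm1b (r = 0.743) and Ighm (r = 0.706). Oprd1 was most like Gm37711 by both measures (r = 0.981 and 0.982), a transcript on the same strand 1362 bases away in GENCODE M21, and then like Ppp6r1 (r = 0.902 and 0.891). Among the 7, the highest r over the 24 means were 0.949 (Oprk1 and Penk), 0.929 (Oprm1 and Penk) and 0.909 (Penk and Pdyn), and with region taken off 0.877 (Oprl1 and Pnoc) and 0.745 (Penk and Pdyn).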

How the data were processed

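Strain, sex, region, mouse and tray came from the sample labels. The libraries were stranded poly(A) libraries, whose reads the authors aligned by STAR 2.7.3a to the B6 reference genome (GRCm39, Ensembl release 105), allowing 3 mismatches per 100 bases, and deposited raw counts per gene for 240 library columns, in which tray 2 and tray 3 occur in a first and a second run. The authors also deposited log2 CPM of 14785 genes (by their stated filter, a mean CPM of 1 or more and no count above 50000) in the libraries used here, 1 run of each, scaled by TMM. Recomputed values matched the deposited log2 values to 5e-06. A median of 87.4% of a library's counts fell on these genes.

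In each region, limma 3.58.1 with voom (prior count 0.5) and edgeR 4.0.16 TMM factors in R 4.3.3 were applied to the counts of all 14785 genes, in a model of strain, sex and tray. P-values were adjusted (Benjamini-Hochberg) over all genes and the 28 contrasts of strains, or over B6 and PWK against Low_Average. Beside the mean over the 7 contrasts of 1 strain stands the largest of their adjusted p-values. Region contrasts and strain by region came from 1 model over every library. That model had no term for the mouse and treated the libraries of a mouse as independent, and the mouse as a replicate block was an alternative. The procedure was tested on simulated data, with 200 genes changed by 1 on the log2 scale in each comparison. By limma, from 74.5% (strain by region F test) to 99% (NAcc against PrL) of them were recovered. Of the calls, from 1.21% (PWK against CAST) to 7.04% (NAcc against PrL) were wrong. The simulated libraries were independent, with no pairing by mouse and no differences in punch content, so the effect of these was not tested. The 3 regions of a mouse share its number in the labels. As a check of the pairing, residuals of the same mouse had median correlations of 0.0552 between CeA and NAcc, 0.0257 between CeA and PrL, and 0.00961 between NAcc and PrL. Within a region, the groups hold separate animals.

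The 7 genes, the pathway and marker lists and the tests were chosen with earlier results of these data known. All 7 are named. Of the pathway lists, the gene with the largest called change in each direction, region and strain is named, and of the similar genes the 2 with the highest Pearson's r. The alternatives tried were DESeq2 1.42.0, the quasi-likelihood test of edgeR, other size factors, filters and adjustments, quality weights, no tray term, summed runs, the excluded library put back, mouse as a replicate block and each mouse left out in turn. The marker covariates (striatal and pallial, or these and diencephalic) and the omission of 3 PrL libraries were added after the data were seen. Figures were drawn with matplotlib 3.10.9.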

Additional observations from a re-analysis of the deposited data

Results flagged for a closer look

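In 17 of 168 groups of strain, region and gene (10.1%), 1 library stood further from its group than Dixon's test allows at 95%, where chance gives about 1 in 20. The lowest libraries of Oprm1 were those of NOD CeA (3.492 CPM, the other 5 from 7.142 to 10.03) and WSB PrL (1.887 CPM, the others from 2.644 to 2.877), and the highest was in B6 NAcc (17.76 CPM, the others from 7.866 to 9.612). Oprk1 was low in 1 library of CAST CeA (12.36 CPM) and of B6 PrL (2.696 CPM). For Oprl1 the low libraries had 50.2 CPM in B6 CeA, 58.76 in NOD NAcc and 61.02 in WSB NAcc, and a high one had 73.23 CPM in B6 NAcc. Penk was low in 1 library of AJ NAcc (684.7 CPM) and high in 1 of NOD NAcc (2137 CPM), PWK PrL (318.4 CPM) and WSB PrL (115.6 CPM). Pdyn was high in PWK PrL (68.4 CPM), and Pnoc low in NOD NAcc (10.34 CPM), WSB NAcc (4.392 CPM) and S129 PrL (6.431 CPM).

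These values came from 13 libraries. In 7 of the 13, the summed striatal markers lay outside the range of the other libraries of the group, in 12 of 13 those markers or the pallial ones did, and in 8 of 13 the diencephalic ones did. NOD mouse 47 NAcc, which held the outlying Oprl1, Penk and Pnoc values, had a striatal sum of 6516 CPM where the others had 1891 to 3469, and a diencephalic sum of 59.52 where they had 159.4 to 282.1. WSB mouse 19 NAcc, low in Oprl1 and Pnoc, had 5793 CPM where the others had 1573 to 3735, and a diencephalic sum of 47.41 where they had 167.9 to 542.7. The part of the markers in these values was not tested.

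The effect of strain differed between regions, by the test of strain by region, for Oprm1 (F = 3.22), Oprd1 (F = 2.25), Oprl1 (F = 2.29), Penk (F = 2.41) and Pdyn (F = 2.9). On the log2 scale, the difference of B6 from Low_Average in Oprm1 changed by 0.593 between the NAcc and the CeA and by -0.91 between the PrL and the NAcc. That of B6 in Oprd1 changed by 0.614 from the PrL to the NAcc, that of B6 in Pdyn by 1.5 from the PrL to the CeA, and that of PWK in Penk by -1.779 from the PrL to the NAcc.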

How the results depend on the processing

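Of 1262 values recomputed under the alternatives that keep every mouse, 1187 kept their side of the threshold, 39 lost a call and 36 gained 1. Of the 1187, 31 changed sign without a call in either fit, such as B6 against Low_Average for Pdyn in the NAcc, from 0.36 to -0.55 with the excluded library, and none of those called reversed. The count of NAcc strain contrasts called was 34, and it was 20 with no filter on low counts, 18 with the excluded library put back and 63 with sample quality weights. With quality weights, B6 against Low_Average gave 10 calls in place of 6 and the contrasts of strain by region 11 in place of 5. The latter count was 1 with no filter, 3 with no tray term and 3 with summed runs. With the excluded library, 3 F tests of strain by region were called in place of 5. With the mouse as a replicate block, 20 of 21 region contrasts were called in place of 19, 6 of 7 F tests in place of 5 (Pnoc was added), and 5 contrasts of strain by region as before. The block changed no other call in these comparisons.

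Leaving out each of the 48 mice in turn gave 37 to 51 strain contrasts in the CeA, 24 to 50 in the NAcc and 68 to 77 in the PrL, 14 to 18 strain F tests, 3 to 9 calls for B6, 5 to 8 for PWK, 0 for sex, 17 to 21 region contrasts, 3 to 7 F tests of strain by region and 1 to 6 of their contrasts. The B6 count was 3 without B6 mouse 33, and 9 without B6 mouse 9. The F count was 3 without AJ mouse 13, AJ mouse 29 or PWK mouse 40, and the contrast count was 1 without B6 mouse 17 or 33. The cause of these changes was not tested. With the striatal, pallial and diencephalic sums as covariates, chosen after the data were seen, 29 strain contrasts were called in the CeA in place of 45, and 3 calls were made for B6 in place of 6. Few reads lay behind Oprm1 in CAST PrL (14 to 33 a library), and libraries of 1 group could differ widely, as for Pnoc in NZO NAcc, from 1.555 to 29.38 CPM.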
